A study of Mus musculus with 4 samples.

Results

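The 10 genes *Bcl2*, *Bcl2l1*, *Bcl2l2*, *Bcl2l10*, *Mcl1*, *Bax*, *Bak1*, *Bok*, *Bid* and *Bad* of the Bcl2 family were taken by symbol from a table of 21957 mouse genes, and all 10 were found. Their mRNA was measured in germinal vesicle (GV) oocytes at 0 h, in control oocytes cultured for 12 h that had reached the second metaphase with a polar body (MII), and in oocytes cultured for 12 h with 10 or 20 μM tubastatin A (TubA-10 and TubA-20). Tubastatin A is a small molecule made to inhibit the deacetylase HDAC6, and oocytes were cultured with or without it to ask how it disturbs meiotic maturation. All oocytes were denuded and came from gonadotropin-primed B6D2F1 females of 6 to 8 weeks, the F1 hybrid of C57BL/6 and DBA. Each condition was 1 library, made from a pool of 100 oocytes by the methods of the study, so no spread between replicates exists and no p-value is given. The MII oocytes were kept only if they had a polar body, and no such selection is stated for the treated ones. Tubastatin A was dissolved in DMSO, and whether the control cultures received DMSO is not stated. The sample titles and the study give 10 and 20 μM, whereas the labels' treatment field puts TubA-10 at 20 μM and TubA-20 at 11 μM.

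Proteins of the Bcl2 family decide whether the outer membrane of the mitochondrion stays intact. Anti-apoptotic members (*Bcl2*, *Bcl2l1* for BCL-XL, *Bcl2l2* for BCL-W and *Mcl1*) bind and restrain the effectors BAX and BAK. These effectors can form pores through which cytochrome c leaves. *Bcl2l10*, also called Diva or Boo, is counted here as anti-apoptotic. BOK is counted here as an effector too. BH3-only members such as BID and BAD sense damage or loss of growth signals and tip that balance, BID by acting on the effectors and BAD by occupying the anti-apoptotic proteins. In the ovary, loss of *Bax* lets more oocytes survive, loss of *Mcl1* from oocytes depletes them, and *Bcl2l10* is a gene known for its expression in oocytes. Whether and how well mouse BCL2L10 protects from cell death is debated.

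Levels are given in FPKM, fragments normalised to transcript length and to the mapped fragments of the library, which allows genes of different length to be compared within a library. Changes are log2 ratios of FPKM + 1, a scale on which changes of low values come out too small, and higher or lower in a count means that this ratio passed 2-fold. All 8 oocyte markers, among them *Zp3* and *Gdf9*, stood at 197 FPKM or more in every library. The 10 cumulus and granulosa cell markers added up to between 8.44 FPKM in TubA-10 and 16.0 FPKM in GV, and *Foxl2* was listed at 0 throughout. *Inha*, one of them, was at 7.50 FPKM in GV and at most 0.314 FPKM in the other libraries. *Cyp19a1*, another, was lowest in GV at 6.14 FPKM and highest in TubA-20 at 10.3 FPKM, and made up most of the sum in each cultured library. The 5 blood markers added up to 2.26 FPKM or less, and both hemoglobin genes were listed at 0. In pooled oocytes, fewer cells of a type and less RNA per cell cannot be told apart, and FPKM are shares of a library that do not give the mRNA per oocyte. Over the 9193 genes that reached 1 FPKM in all libraries, MII differed from GV by a median log2 change of 0.13, TubA-10 by 0.14 and TubA-20 by 0.19. Relative to the median gene, changes against GV of members with high values are lower by about that amount, and those of members with low values by less.

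The libraries were selected for poly(A) tails, so the 3′ ends of the members are shown before their levels. Maturing oocytes hardly transcribe, and the length of the poly(A) tail of a stored mRNA changes during maturation. Lengthening relies on the polyadenylation signal (AATAAA or ATTAAA) and, upstream of it, on a cytoplasmic polyadenylation element (CPE), searched here as TTTTAT or TTTTAAT on the mRNA strand of the principal transcript of GENCODE M21. The 5 members with at least 1 FPKM are printed 5′ to 3′ on GRCm38 with the signal, and a CPE where it lies in the same stretch, in capitals. *Bcl2l10* lies at chr9:75351591-75351620 on the plus strand, *Bcl2l1* at chr2:152780685-152780714 on the minus strand, *Mcl1* at chr3:95663138-95663167 on the plus strand, *Bax* at chr7:45461714-45461743 on the minus strand and *Bad* at chr19:6951854-6951883 on the plus strand.
Bcl2l10: TTTTAATaacttcaaattcttAATAAAtgt
Bcl2l1: aggtgaaagtgcagttcagtAATAAAtggt
Mcl1: tctgtttcttctgaagagaaAATAAAcctt
Bax: tggtggcctggggaggcgccAATAAAcctc
Bad: tcgcgagaaacgtgctttatAATAAAgcct

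Of these 5 mRNAs only that of *Bcl2l10* held a CPE within the last 100 bases. Its TTTTAAT begins 42 bases before the annotated end and 21 bases upstream of the AATAAA. *Bcl2l1* and *Mcl1* each had 1 CPE further upstream in 3′ UTRs of 1473 and 2353 bases, and *Bax* and *Bad* had none in 3′ UTRs of 165 and 375 bases. Among the members below 1 FPKM, *Bcl2l2* held a TTTTAT that begins 70 bases from the end, shown in capitals on the plus strand at chr14:54888154-54888183.
Bcl2l2: gttcatttgacTTTTATttttgtgtaatat

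A CPE in the last 100 bases was found in 17.8% of the 19115 genes with a 3′ UTR of at least that length, and in 20.1% of the 10111 of them with at least 1 FPKM in a library. Either form of the polyadenylation signal was found in the last 40 bases of 73.6% of the 19115 genes, and in every member except *Bid*. These are matches of letters, and the tails themselves were not measured.

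**Figure D1:**
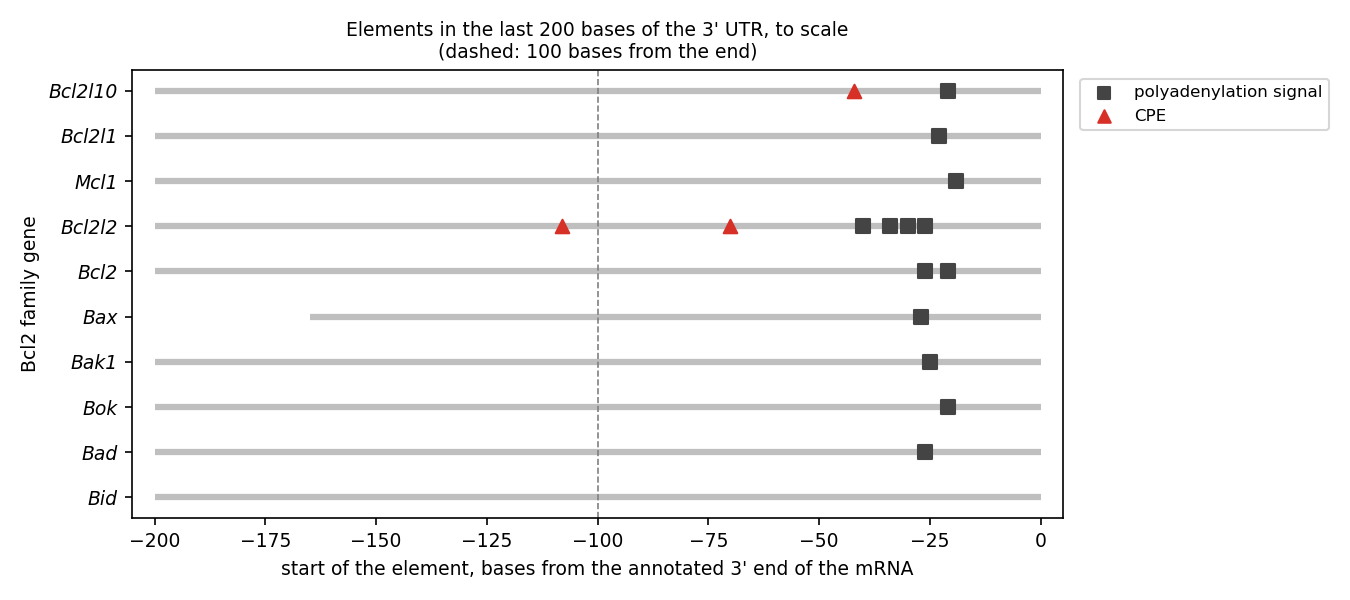
Positions of polyadenylation signals (squares) and CPEs (triangles) in the last 200 bases of the annotated 3′ UTR of each member, in bases from the 3′ end of the mRNA. Among the members only *Bcl2l10*, at 42 bases, and *Bcl2l2*, at 70 bases, have a CPE to the right of the dashed line at 100 bases.

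*Bcl2l10* dominated the family in all 4 libraries. It stood at 2279 FPKM in GV and 3197 FPKM in MII, while TubA-10 had 2776 FPKM and TubA-20 had 3881 FPKM. That placed it at rank 16 among all genes in GV, rank 9 in TubA-10 and rank 7 in both MII and TubA-20. It made up 95.2% of the summed FPKM of the 10 members in GV and 98.8% in MII, with 98.1% for TubA-10 and 99.1% for TubA-20. The next member, *Bax*, was 33.2 times lower in GV, 183 times in MII, 116 times in TubA-10 and 192 times in TubA-20.

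*Bcl2l10* did not pass 2-fold in any comparison. Relative to GV its log2 change was 0.49 (MII), 0.28 (TubA-10) and 0.77 (TubA-20). Relative to MII, TubA-10 differed by −0.20 and TubA-20 by 0.28. TubA-10 therefore lay between GV and MII, and TubA-20 lay above MII. The gene sits on chromosome 9 (75347758 to 75351632), has 1 annotated transcript of 1220 bases in 2 exons, and overlaps no other annotated gene. Expressed genes with a CPE in the last 100 bases of the mRNA, as in *Bcl2l10*, (2037 genes) had medians relative to GV of 0.41 (MII), 0.29 (TubA-10) and 0.58 (TubA-20) on the log2 scale. Expressed genes without one had medians of −0.03, 0.05 and −0.03 (8074 genes). The part of the CPE in the level of *Bcl2l10* was not tested.

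**Figure D2:**
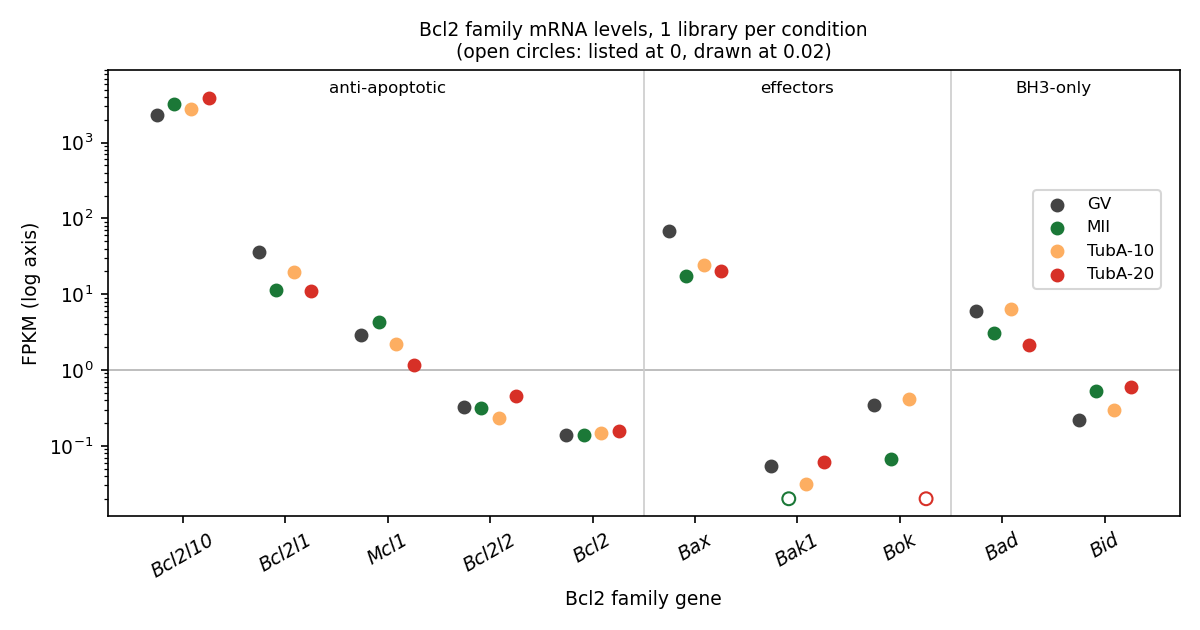
FPKM of the 10 members (log axis) in the GV, MII, TubA-10 and TubA-20 libraries, 1 point per library, grouped by role, with the grey line at 1 FPKM and values listed at 0 drawn as open circles at 0.02. *Bcl2l10* lies at 2279 FPKM or higher in every library, *Bcl2l1*, *Mcl1*, *Bax* and *Bad* between 1.16 and 68.7 FPKM, and the other 5 members below 1 FPKM.

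Among the other anti-apoptotic members, *Bcl2l1* was the most abundant. Its level was 36.3 FPKM in GV and 11.4 FPKM in MII, while TubA-10 had 19.8 FPKM and TubA-20 had 10.9 FPKM. All cultured oocytes were below GV, MII and TubA-20 were 1.05-fold apart, and TubA-10 lay between them and GV. Relative to GV the log2 change was −1.59 (MII), −0.84 (TubA-10) and −1.65 (TubA-20), so it passed 2-fold in MII and TubA-20.

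*Mcl1*, whose protein is known for rapid turnover, reached 2.87 FPKM in GV and 4.26 FPKM in MII, compared with 2.23 FPKM in TubA-10 and 1.16 FPKM in TubA-20. It was the one member with at least 1 FPKM that was higher in MII than in GV and lower than GV in both TubA libraries. The log2 change relative to GV was 0.44 (MII), −0.26 (TubA-10) and −0.84 (TubA-20). Relative to MII, *Mcl1* differed by −0.70 in TubA-10 and by −1.29 in TubA-20. As a ratio of FPKM, *Mcl1* was 3.68-fold lower in TubA-20 than in MII. Of the 10280 genes with at least 1 FPKM in MII or TubA-20, 1.97% had a lower change between them than *Mcl1*. Between TubA-10 and MII, 0.911% of genes that reached 1 FPKM had a lower change than *Mcl1*. *Bcl2l10* exceeded *Mcl1* 751 times in MII and 3360 times in TubA-20.

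*Bcl2l2* and *Bcl2* stayed low in all libraries. *Bcl2l2* ranged from 0.233 FPKM in TubA-10 to 0.452 in TubA-20, and *Bcl2* from 0.139 in MII to 0.156 in TubA-20. The lowest step of FPKM among long genes with 1 transcript was taken as the value of 1 fragment, by which *Bcl2* rested on about 16 to 24 fragments per library and *Bcl2l2* on about 18 to 23. *Bcl2l2* shares 595 bases with the read-through gene *Gm20521*, so its low values are uncertain.

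Of the effectors, only *Bax* reached 1 FPKM. *Bax* measured 68.7 FPKM in GV and 17.5 FPKM in MII, with 24.0 FPKM for TubA-10 and 20.2 FPKM for TubA-20. All 3 libraries of cultured oocytes lay well below GV and close to each other, with MII the lowest. Its log2 change relative to GV was −1.92 (MII), −1.48 (TubA-10) and −1.72 (TubA-20), past 2-fold each time. Relative to MII, TubA-10 differed by 0.44 and TubA-20 by 0.20. Of the genes with at least 1 FPKM, 3.82% had a lower change from GV to MII than *Bax*, and 12.3% a lower change from GV to TubA-20. *Bax* lies on chromosome 7 (45461697 to 45466898) and shares 193 bases with the overlapping entry *Gm45808*, which was at 0.123 FPKM or less in every library.

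*Bak1* and *Bok*, the other effectors, were at the edge of detection. *Bak1* had 0.0549 FPKM in GV, 0.0317 FPKM in TubA-10 and 0.0609 FPKM in TubA-20 and was listed at 0 in MII, which corresponds to about 2 fragments where it was above 0. *Bok* had 0.350 FPKM in GV, 0.0666 FPKM in MII and 0.410 FPKM in TubA-10 and was listed at 0 in TubA-20, or about 8, 2, 13 and 0 fragments. At about 2 fragments the order of the libraries cannot be told for *Bak1*. *Bak1* overlaps *Ggnbp1* on the opposite strand, which had 0.952 to 3.11 FPKM.

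Of the BH3-only members, *Bad* was above 1 FPKM and *Bid* below it. *Bad* had 5.92 FPKM in GV and 3.09 FPKM in MII, compared with 6.29 FPKM in TubA-10 and 2.16 FPKM in TubA-20. GV and TubA-10 were close, and MII and TubA-20 were lower. The log2 change of *Bad* relative to GV was −0.76 (MII), 0.08 (TubA-10) and −1.13 (TubA-20). Relative to MII, it differed by 0.83 in TubA-10 and by −0.37 in TubA-20. The small difference between TubA-10 and GV turned to −0.04 when the median change was set to 0. *Bad* overlaps *Gpr137* on the opposite strand, which had 17.2 FPKM in GV and 3.07 to 4.66 FPKM in the other libraries. The authors counted with a strand-specific setting. *Bid* had 0.221 FPKM in GV, 0.295 FPKM in TubA-10, 0.532 FPKM in MII and 0.591 FPKM in TubA-20, or about 8, 14, 24 and 18 fragments. It overlaps *Bcl2l13* on the opposite strand, which was over 10 times as abundant, with 6.60 to 10.4 FPKM.

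In the count over all 10 members, *Bcl2l1* and *Bax* were more than 2-fold lower in MII than in GV and none was higher, while 8.34% of all 21957 genes were lower and 3.05% higher. In TubA-10 against GV, *Bax* alone was lower and none was higher, beside 5.6% and 0.742% of all genes. In TubA-20 against GV, *Bcl2l1*, *Bax* and *Bad* were lower and none was higher, beside 11.7% and 7.61% of all genes. Against MII, no member passed 2-fold in TubA-10, where the shares over all genes were 0.128% lower and 0.515% higher. In that comparison *Bad* had a higher change than 97.4% of the genes that reached 1 FPKM and *Bcl2l1* than 96.3% of them. Between TubA-20 and MII, *Mcl1* was lower and none was higher, beside 2.44% and 0.328% of all genes.

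Only 5 of the 10 members could pass 2-fold. The other 5 were below 1 FPKM in every library, and on the scale of FPKM + 1 such genes cannot reach 2-fold. Over genes that reached 1 FPKM in either library compared, the shares that were lower come to 17.2% (MII), 11.6% (TubA-10) and 23.9% (TubA-20) relative to GV, and to 5.21% between TubA-20 and MII. The 10 members had a median log2 change relative to GV of −0.04 (MII), −0.01 (TubA-10) and −0.21 (TubA-20). Relative to MII their median was 0.03 for TubA-10 and 0.04 for TubA-20. Over all genes the median was 0 in each comparison. The 5 members below 1 FPKM hold these medians near 0. The 5 members above it had medians relative to GV of −0.76 (MII), −0.26 (TubA-10) and −1.13 (TubA-20), beside 0.04, 0.08 and 0.08 for all genes that reached 1 FPKM. Relative to MII these 5 had medians of 0.44 (TubA-10) and −0.06 (TubA-20), beside 0.01 and 0.01. The comparisons share the GV or the MII library and are not independent of each other.

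**Figure D3:**
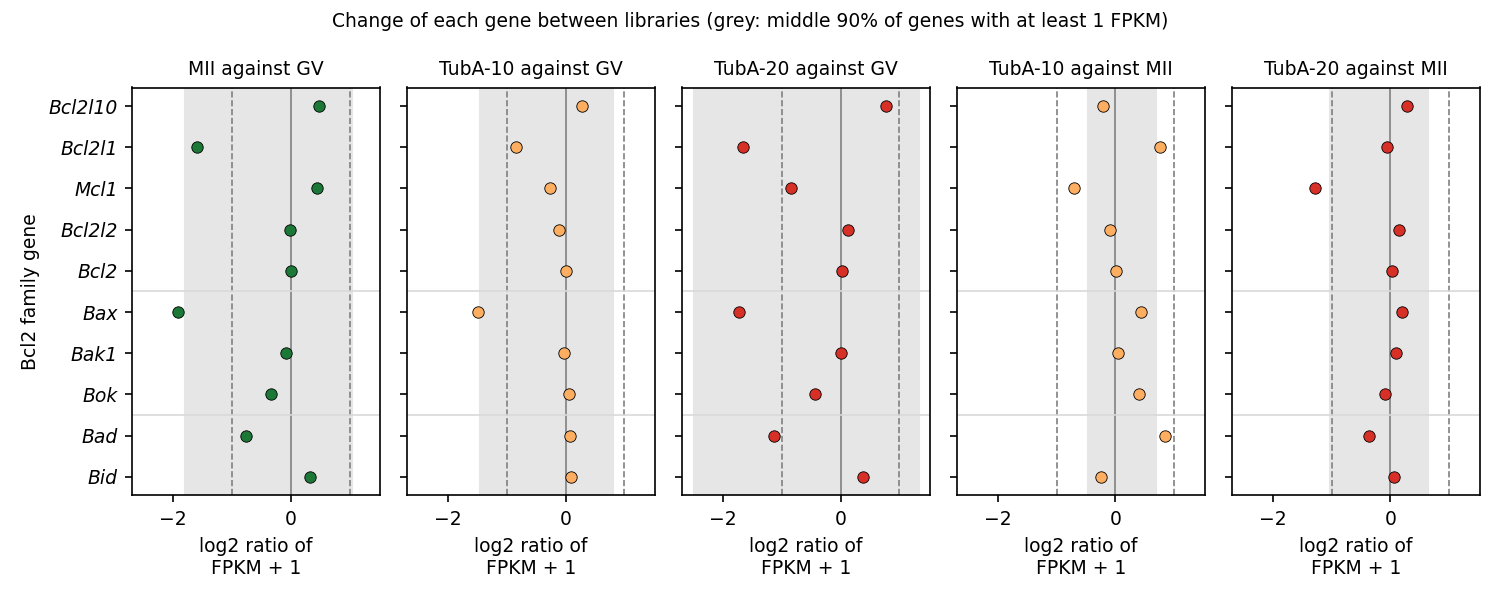
Log2 ratio of FPKM + 1 of each member in the 5 comparisons, 1 point per gene, with dashed lines at 2-fold and in grey the middle 90% of genes that reached 1 FPKM in either library. *Bax* and *Bcl2l1* are the lowest points against GV in every panel that compares with GV, and *Mcl1* is the lowest against MII.

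By role, the anti-apoptotic members added up to 2319 FPKM in GV and 3213 FPKM in MII, while TubA-10 had 2798 FPKM and TubA-20 had 3894 FPKM, nearly all of it *Bcl2l10*. The effectors added up to 69.1 FPKM in GV and 17.5 FPKM in MII, with 24.5 FPKM for TubA-10 and 20.3 FPKM for TubA-20. Their log2 change relative to GV was −1.92 (MII), −1.46 (TubA-10) and −1.72 (TubA-20). The BH3-only members, *Bad* and *Bid*, added up to 6.14, 3.62, 6.59 and 2.76 FPKM in the same order. That sum leaves out BH3-only genes outside the members, such as *Bik*, given below, at 37.3 to 68.1 FPKM. The ratio of anti-apoptotic to effector FPKM was 33.6 in GV and 183 in MII, with 114 for TubA-10 and 192 for TubA-20.

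That ratio rested on *Bcl2l10*. Without it, the anti-apoptotic members added up to 39.7 FPKM in GV and 16.1 FPKM in MII, compared with 22.5 FPKM in TubA-10 and 12.6 FPKM in TubA-20. Their ratio to the effectors was then 0.574 for GV, 0.919 for both MII and TubA-10, and 0.623 for TubA-20, so the effectors were higher in every library. Ratios within a library do not depend on how the libraries are scaled. They are ratios of mRNA, and protein was not measured here.

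**Figure D4:**
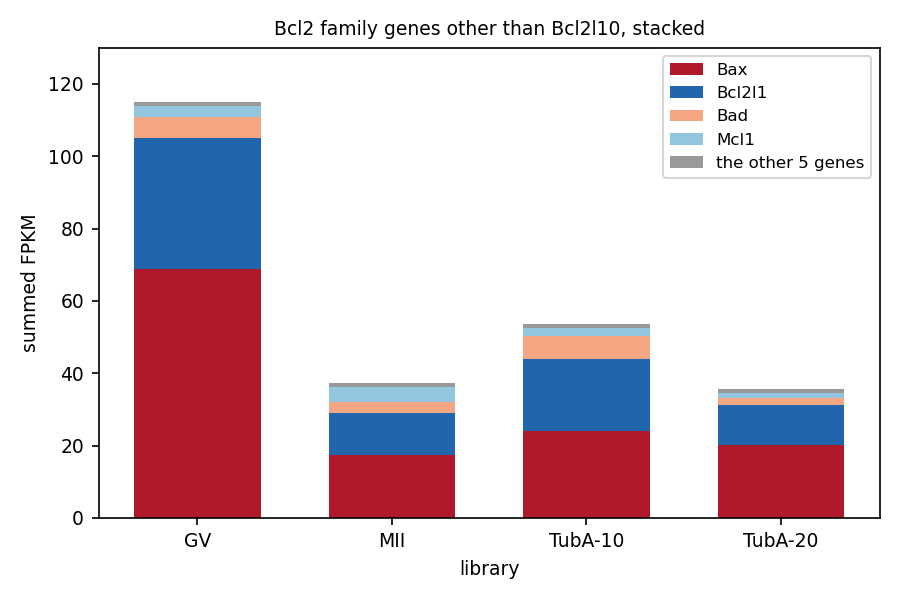
Summed FPKM of the 9 members other than *Bcl2l10* in each library, stacked by gene. The sum is 115 FPKM in GV and 37.3 FPKM in MII, compared with 53.5 FPKM in TubA-10 and 35.7 FPKM in TubA-20, with *Bax* and *Bcl2l1* as the largest parts.

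Of the 5 members with at least 1 FPKM, *Bcl2l10*, *Bcl2l1* and *Bax* had a TubA-10 level between those of GV and MII. Among 10898 genes with at least 1 FPKM in some library, 64.5% did so too. *Bcl2l10*, *Bcl2l1* and *Bad* were displaced further from GV in TubA-20 than in MII in the same direction, as were 69.3% of those genes. *Bax* in TubA-20 lay between GV and MII, and *Mcl1* lay below both.

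The genes closest to *Bcl2l10* in their 3 changes against GV, by Euclidean distance among 6365 other genes with at least 10 FPKM in a library, were *Tcaim* (distance 0.05), *Fkbp15* (0.05) and *Cpeb3* (0.05). *Tcaim*, the closest, had 14.3 FPKM in GV and 20.0 FPKM in MII, with 17.8 FPKM for TubA-10 and 25.6 FPKM for TubA-20. Within a distance of 0.2 of *Bcl2l10* lay 192 genes, or 3.02% of those searched. For *Bax* the closest were *Rpl37* (0.09), *Chst7* (0.10) and *Thg1l* (0.12), and 9 genes, or 0.141%, lay within 0.2. *Rpl37* had 587 FPKM in GV and 159 FPKM in MII, with 212 FPKM for TubA-10 and 168 FPKM for TubA-20, uncertain because ribosomal protein genes have many near-identical copies.

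Of 15 further genes with Bcl2 homology or BH3 domains, 4 were listed at 0 in every library (*Bcl2a1a*, *Bcl2a1b*, *Bcl2a1d* and *Bcl2l14*) and 8 in all stayed below 1 FPKM. The BH3-only genes *Bbc3* (PUMA) and *Pmaip1* (NOXA), known as p53 targets, were among these, with at most 0.194 and 0.190 FPKM. Other genes of this list were abundant, and 3 of them are named here after their values were seen. *Bik*, a BH3-only gene, had 68.1 FPKM in GV and 37.3 FPKM in MII, with 58.4 FPKM for TubA-10 and 55.4 FPKM for TubA-20, which is more than *Bad* in every library and more than *Bax* in every library but GV. *Bnip3l* ranged from 44.9 to 84.3 FPKM and *Bnip3*, like it a mitophagy receptor, from 15.6 to 29.4 FPKM. *Bcl2l11* (BIM) had 2.83 FPKM in GV and 4.67 FPKM in MII, with 2.96 FPKM for TubA-10 and 4.90 FPKM for TubA-20. None of the 15 was more than 2-fold higher than GV in any library, except *Bnip3l* in TubA-10 with *Gapdh* set equal. *Bcl2l12* and *Bcl2l15* were more than 2-fold lower in MII and TubA-20, and *Bcl2l15* also in TubA-10. Only 7 of the 15 reached 1 FPKM, and among all such genes 17.2% (MII), 23.9% (TubA-20) and 11.6% (TubA-10) were lower. The shares that were higher came to 6.28%, 15.5% and 1.53% in the same order. *Bcl2l12* had 12.8 FPKM in GV and 3.30 FPKM in MII, with 6.66 FPKM for TubA-10 and 2.40 FPKM for TubA-20. *Bcl2l15* had 6.77 FPKM in GV, and its values were 1.24 FPKM in MII, 2.28 FPKM in TubA-10 and 1.91 FPKM in TubA-20. Relative to GV the 15 genes had a median log2 change of 0 for MII and TubA-10 and of −0.02 for TubA-20, beside 0 for all genes.

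Downstream of the effectors, 16 genes of the apoptosome, the caspases and their inhibitors were measured. In MII, 3 of them (*Cycs*, *Casp8* and *Endog*) were more than 2-fold lower than in GV and 1 (*Birc3*) was higher. The MII calls of *Casp8* (log2 change −1.07) and *Birc3* (1.07) were close to the threshold and depended on the scaling. In TubA-20, *Cycs*, *Diablo* and *Endog* were lower and *Birc3* was higher, and in TubA-10 none passed 2-fold. Among all genes that reached 1 FPKM, as 15 of these 16 did, 17.2% were lower and 6.28% higher in MII. In TubA-20, 23.9% were lower and 15.5% higher, and in TubA-10, 11.6% were lower and 1.53% higher. These counts are thus near or below the background. Against MII none passed 2-fold in either TubA library. There, 0.271% (TubA-10) and 5.21% (TubA-20) of genes that reached 1 FPKM were lower, and 1.1% and 0.7% were higher. Their median log2 change relative to GV was 0.16 (MII), 0.10 (TubA-10) and 0.14 (TubA-20), beside 0.04, 0.08 and 0.08 over all genes that reached 1 FPKM. *Cycs*, which encodes cytochrome c, had 68.4 FPKM in GV and 26.9 FPKM in MII, with 34.3 FPKM for TubA-10 and 23.1 FPKM for TubA-20, and is uncertain because of its many pseudogenes. *Apaf1*, the scaffold of the apoptosome, was at 1.38, 2.06, 1.68 and 2.495 FPKM in that order. Its partner *Casp9* stayed between 1.05 and 1.71 FPKM. *Birc3*, an inhibitor of apoptosis gene, had 131 FPKM in GV and 277 FPKM in MII, compared with 230 FPKM in TubA-10 and 329 FPKM in TubA-20.

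Among 8 genes for outer membrane partners of the family and for ubiquitin ligases or deubiquitinases that act on MCL1 or related targets, *Fbxw7* was more than 2-fold higher and *Btrc* lower in MII than in GV. In TubA-20, *Usp9x* and *Fbxw7* were higher and *Vdac3*, *Mtch2* and *Btrc* lower, and in TubA-10 *Usp9x* alone was higher. *Usp9x* sat on the threshold, with a log2 change of 1.005 in TubA-10 and 0.989 in MII, and with the median change set to 0 it passed in no library. That scaling also ended the call of *Fbxw7* in MII, where its log2 change was 1.04. All 8 reached 1 FPKM, and the shares of all such genes that were higher came to 6.28% (MII), 1.53% (TubA-10) and 15.5% (TubA-20). The shares that were lower came to 17.2% (MII), 11.6% (TubA-10) and 23.9% (TubA-20). Their median log2 change relative to GV was 0.08 (MII), 0.27 (TubA-10) and −0.15 (TubA-20), beside the same 0.04, 0.08 and 0.08. *Usp9x*, whose product removes ubiquitin from MCL1, had 92.8 FPKM in GV and 185 FPKM in MII, with 187 FPKM for TubA-10 and 195 FPKM for TubA-20. *Fbxw7*, part of a ligase that can target MCL1, was at 5.84, 13.1, 8.36 and 15.1 FPKM in that order. *Vdac2*, a channel that holds BAK at the membrane, was at 123, 87.8, 131 and 63.1 FPKM. *Mtch2*, the mitochondrial receptor of truncated BID, was at 3.42, 1.60, 2.05 and 0.843 FPKM. Against MII none of the 8 passed 2-fold. Of genes that reached 1 FPKM, 0.271% were lower and 1.1% higher in TubA-10 than in MII, and 5.21% and 0.7% in TubA-20.

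**Figure D5:**
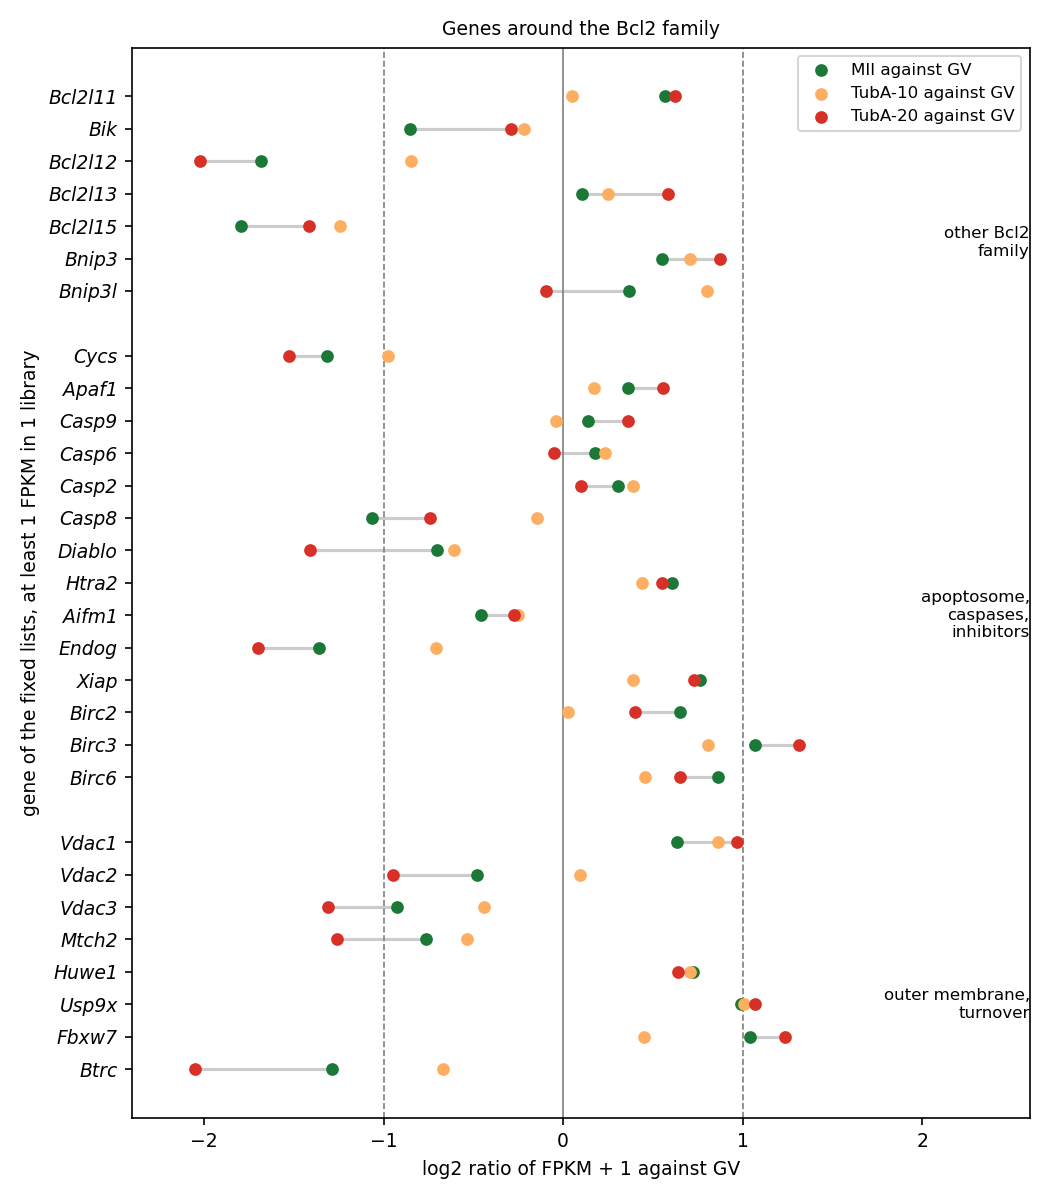
Log2 ratio of FPKM + 1 against GV in MII, TubA-10 and TubA-20 for the reported genes of the 3 lists with at least 1 FPKM in some library, 1 row per gene, with dashed lines at 2-fold and a grey bar between MII and TubA-20. *Bcl2l12* and *Btrc* lie furthest left and *Birc3* furthest right, in TubA-20 for all of them.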

How the data were processed

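RNA of pooled oocytes was selected for poly(A), made into stranded libraries and sequenced in 4 libraries, 1 per condition. The labels and the methods of the study name different extraction reagents. The authors deposited 1 table of FPKM values, made with cufflinks and a strand-specific setting on mm10, and the submitters' processing notes also name STAR 2.5.0 and Cuffdiff 2.2.1. Each value had thus been divided by transcript length and mapped fragments. Libraries were mapped by their descriptions, and 165 of 21959 entries had no symbol in the name table and kept their identifier. The FPKM of entries that share a symbol were summed. No filter and no further scaling was applied, and log2 ratios used a pseudocount of 1. The table holds no depth, and the read totals that the study states are not used here. The lowest step of FPKM times transcript length, the 5% quantile of values between 0.01 and 0.25 over 2207 genes with 1 transcript of over 1500 bases, was 0.0638 FPKM kb for GV, 0.0484 (MII), 0.0449 (TubA-10) and 0.0721 (TubA-20), and gave the approximate fragments. The effective length that cufflinks used is not known and not every read is counted in a gene, so these fragments are rough and may be too low. Principal transcripts, their 3′ ends and coordinates came from GENCODE M21 (GRCm38).

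The members and lists were chosen with earlier results of these data known. All 10 members are named. From the lists, genes past 2-fold with at least 5 FPKM could be named, at most 8 a list, together with 9 genes fixed by name. Of these, 1 is not reported here. The pattern of the most abundant anti-apoptotic and pro-apoptotic member was matched to 3 genes each. The search for elements in 3′ UTRs and the fragment estimate were added after seeing the data. Alternatives were a pseudocount of 0.1 or 0.01, a minimum of 1 or 5 FPKM, 4 scalings, the highest entry per symbol and a 3-fold threshold. Scripts were tested on simulated data. Python 3.11.15 with numpy 2.4.6, pandas 2.3.3 and matplotlib 3.10.9 was used.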

Additional observations from a re-analysis of the deposited data

How the results depend on the processing

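No replicate exists, so none could be left out. No paired analysis was possible because each condition is 1 library. The pseudocount moved the counts most. With 0.01, 4 members were lower and 1 (*Bid*) higher in MII than in GV. Against GV, TubA-20 then had 5 lower and 1 higher, and against MII, TubA-10 had 3 higher and TubA-20 had 2 lower and 1 higher. With 0.1, TubA-20 had 5 lower and 1 higher against GV, where *Mcl1* passed 2-fold at −1.24, and TubA-10 had 2 higher against MII, where *Bad* just passed it. The additions below 1 FPKM rest on few fragments. At 3-fold, 0 members remained lower in TubA-10 than in GV and 0 in TubA-20 than in MII. A minimum of 5 FPKM also left 0 in TubA-20 against MII, because *Mcl1* was not tested. The median of the members became −1.17 in MII and −1.39 in TubA-20 against GV with a minimum of 5 FPKM, since fewer genes were tested, and −1.13 in TubA-20 against GV and −0.064 in TubA-20 against MII with a minimum of 1 FPKM. Equal *Gapdh* turned the median to 0.013 in TubA-10 against GV and to −0.00046 in TubA-20 against MII. With the median change set to 0, the BH3-only sum turned to −0.033 in TubA-10 and passed 2-fold at −1.06 in TubA-20, both against GV. Changes of single members that turned were those of *Bad* (−0.044 in TubA-10), *Bak1* (−0.0019 in TubA-20) and *Bcl2* (−0.0050 in TubA-10 and −0.0027 in TubA-20) with the median change set to 0, those of *Bcl2* and *Bcl2l2* in MII with equal FPKM sums (0.017 and 0.028), upper quartiles (0.0074 and 0.0095) and *Gapdh* (0.030 and 0.053), all against GV, and that of *Bid* in TubA-20 against MII with equal *Gapdh* (−0.0024). The directions of *Bcl2l10*, *Bcl2l1*, *Mcl1* and *Bax* held in all 5 comparisons under every alternative that tested them. The lists were recomputed under the 4 scalings only, a choice made after seeing the data. With the median change set to 0, *Birc3* and *Fbxw7* no longer passed 2-fold in MII, which left 0 higher genes in both their lists, while *Vdac3* became lower there, for 2 lower in the outer membrane list. In TubA-10 the same scaling left 0 higher in that list and made 1 gene (*Cycs*) lower in the apoptosome list. In TubA-20 it left 1 higher (*Fbxw7*) in the outer membrane list. *Vdac2* became lower there, for 4 lower, as it did with equal upper quartiles. Equal *Gapdh* made *Vdac1* higher in TubA-20, for 3 higher in that list. In MII, equal FPKM sums, upper quartiles or *Gapdh* gave 2 higher in the outer membrane list (*Usp9x* and *Fbxw7*), and equal *Gapdh* gave 2 higher in the apoptosome list (*Birc3* and *Birc6*). With equal FPKM sums or *Gapdh*, *Casp8* no longer passed in MII, which left 2 lower in the apoptosome list (*Cycs* and *Endog*). In TubA-10, equal *Gapdh* gave 1 higher in the apoptosome list (*Birc3*), 1 among the other Bcl2 family genes (*Bnip3l*) and 2 in the outer membrane list (*Vdac1* and *Usp9x*).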
